A study of Mus musculus with 12 samples.

Results

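Carbonic anhydrases are described here in whole mouse embryos of 3 Mfsd12 genotypes. The genes were taken by name from the deposited count table: the 10 carbonic anhydrase genes Car2, Car3, Car4, Car7, Car8, Car10, Car11, Car12, Car13 and Car14, out of 41079 genes in all. Car9, the family's well-known target of the low-oxygen response, was left out of the set by its rule, and 5 further family genes (Car1, Car5a, Car5b, Car6 and Car15) are not among its members either. The set was selected on the Car4 counts of knockout and wild-type embryos in these same data, whose difference had drawn notice. Members' values in comparisons of knockout embryos are therefore given as descriptions, and nothing is read from the counts of members past a threshold there.

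The embryos came from timed matings of Mfsd12 heterozygous animals and were between 10.0 and 11.0 days old. Mfsd12 encodes a lysosomal and melanosomal membrane protein needed for cysteine import. There were 4 knockout embryos, with the gene disrupted, 4 heterozygous embryos, with 1 disrupted copy expected, and 4 wild-type embryos. The kind of allele, the strain and the age of each embryo are not given in the sources used here. Each embryo is 1 library, and embryos are numbered within a genotype in deposition order.

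Carbonic anhydrases interconvert carbon dioxide and water with bicarbonate and a proton, a reaction that the active forms carry out on a zinc ion held by histidines. Through it they move carbon dioxide from tissues to blood, feed bicarbonate and proton transporters and set the acidity inside and around cells. Car2, Car3, Car7 and Car13 work in the cytosol. Car4 sits on the outer face of the cell membrane on a lipid anchor, and Car12 and Car14 span the membrane with their catalytic domain outside. Car8, Car10 and Car11 are related proteins that lack zinc-binding histidines and do not catalyse the reaction. In red blood cells Car2 is the main active form that persists through life, while several of the related proteins are best known from neurons.

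Depth lay between 53133084 and 67977990 counted reads per embryo, and all 10 genes passed the filter on low counts, as did 20771 of the 41079 genes. Mfsd12 itself had 9.37 to 16.2 CPM (read counts relative to the library total, scaled by TMM factors) in wild-type, 2.57 to 8.84 in heterozygous and 2.31 to 3.56 in knockout embryos. The library labelled heterozygous 2, with 2.57 CPM, lay inside the knockout range and goes against its label. Of the 3971 bases of Mfsd12 exons, 695 overlap the gene Tektip1, so that a part of these counts, which was not estimated, may not be its own. Transcripts of Ddx3y, on the Y chromosome, reached 44.8 to 75.1 CPM in knockout 2, 3 and 4 and in wild-type 1, 3 and 4, and were at or near 0 in all heterozygous embryos, knockout 1 and wild-type 2. The first number in the embryos' titles (4, 14, 15, 18 or 4.1b) has no stated meaning, and only 4 and 18 occurred with every genotype. RNA came from whole embryos, so that fewer cells of a type and less RNA per cell cannot be told apart in any value below.

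Per unit of length, Car2 was the most abundant member and Car10 the least. The mean over the 12 embryos was 88.4 ± 58.7 CPM per kilobase (SD, n = 12) for Car2 and 22.1 ± 9.26 CPM per kilobase for Car14, and Car2 lay above Car14 in 12 of 12 embryos. Both were higher than all the other members in every embryo, Car14 lying above Car4, the next by mean level, in 12 of 12. Car4 had 4.71 ± 6.81, Car3 3.83 ± 0.978 and Car13 3.78 ± 0.918 CPM per kilobase. The third place of Car4 came from 3 knockout embryos, the only ones of the 12 in which it exceeded Car3, and Car3 exceeded Car13 in 6 of 12. Car11 (1.22 ± 0.436), Car12 (0.886 ± 0.279) and Car8 (0.809 ± 0.163) formed a lower tier, in which Car12 exceeded Car8 in 8 of 12 embryos. Car7 had 0.299 ± 0.229 and Car10 0.213 ± 0.185 CPM per kilobase, on averages of 54.8 and 51.5 counted reads per embryo. The spread between embryos differed between members as well. The highest embryo had 18.6-fold the lowest for Car4, 14.1-fold for Car10 and 11.2-fold for Car2, with Car7 between these last 2, but 1.85-fold for Car8.

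**Figure D1:**
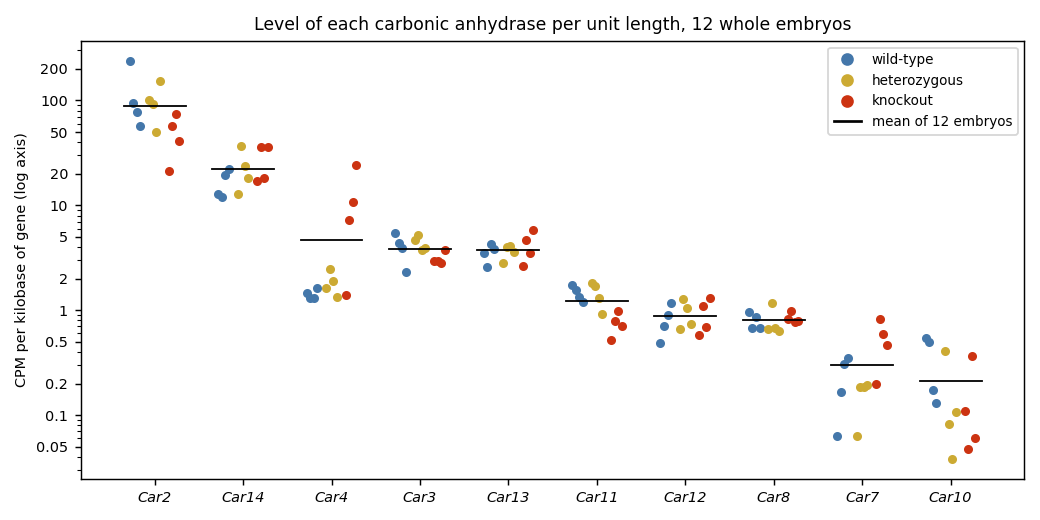
Level of each member in CPM per kilobase of gene (log axis), ordered by the mean of 12 embryos (black line), with 1 point per embryo coloured by genotype. Car2 and Car14 stand above the rest, and the 3 highest Car4 points are knockout embryos.

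Car4, the membrane-anchored enzyme, was high in 3 of the 4 knockout embryos and low everywhere else. Its plus-strand exons fall between positions 84848580 and 84856880 of chromosome 11 (GRCm39) and overlap no other gene. In wild-type 1 to 4 it had 2.36, 2.14, 2.13 and 2.64 CPM. In heterozygous 1 to 4 it had 2.64, 3.99, 3.09 and 2.20 CPM. Knockout 2, 3 and 4 had 11.9, 17.4 and 39.5 CPM, above all 8 embryos of the other genotypes. Knockout 1, with 2.27 CPM, lay inside the wild-type range, so the genotypes overlapped. Group means were 2.32 ± 0.240 CPM in wild-type, 2.98 ± 0.766 in heterozygous and 17.7 ± 15.8 in knockout embryos (SD, n = 4 each). The fitted log2 fold change was 2.94 ± 0.59 SE in knockout against wild-type, 2.58 ± 0.58 SE in knockout against heterozygous and 0.36 ± 0.56 SE in heterozygous against wild-type embryos. The first became 3.32 without knockout 1, 2.18 without knockout 4, 2.23 with the title number as a block, 2.11 with the stage index described below and 1.48 by limma voom with sample weights.

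Title numbers 4 and 18 each held knockout and wild-type embryos. A split by them regroups the Car4 counts on which the set was selected, and is a description only. Knockout minus wild-type was 2.31 on the log2 scale within number 4 (knockout 2) and 2.93 within number 18 (knockout 3). Number 15 held knockout 4 alone. In number 14, knockout 1 lay below the library labelled heterozygous 2. Knockout 1 was also the only knockout embryo without Ddx3y, while the 3 wild-type embryos with Ddx3y had 2.13 to 2.64 CPM of Car4. Each of the 4 knockout embryos had a title number of its own, so that among them sex, title number and the embryo itself cannot be told apart. Markers of epithelia that could carry Car4 were compared beside it. All 10 yolk sac endoderm markers passed the filter, none was at 0 in every embryo, and 10 of 10 had higher estimates in knockout against wild-type embryos. Their summed level was 63.3 to 164 CPM in wild-type, 94.6 to 697 in heterozygous and 83.7 to 4766 CPM in knockout embryos. The highest sum belonged to knockout 3, high in Car4. Knockout 2 and knockout 4, also high in Car4, had sums of 99.0 and 110 CPM, inside the range of the other genotypes. The 8 gut endoderm markers, all above the filter and none at 0 throughout and 8 of 8 with higher estimates in knockout against wild-type embryos, summed to 75.7 to 98.0 CPM in wild-type, 73.2 to 110 in heterozygous and 106 to 167 CPM in knockout embryos. Knockout 1 had the lowest gut endoderm sum of the knockout embryos. The part of the gut endoderm and yolk sac endoderm markers in the Car4 levels was not tested. A stage index, the mean z score of 6 late genes minus that of 6 early genes, was lowest in knockout 4 (-3.19), knockout 2 (-1.02) and knockout 1 (-0.477), and 0.512 in knockout 3, against 0.0478 to 1.57 in wild-type embryos. Knockout 2 and knockout 4, high in Car4, and knockout 1, low in Car4, lay below all wild-type embryos on this index. Knockout 3, high in Car4, lay within their range. The part of stage in the Car4 levels was not tested.

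**Figure D2:**
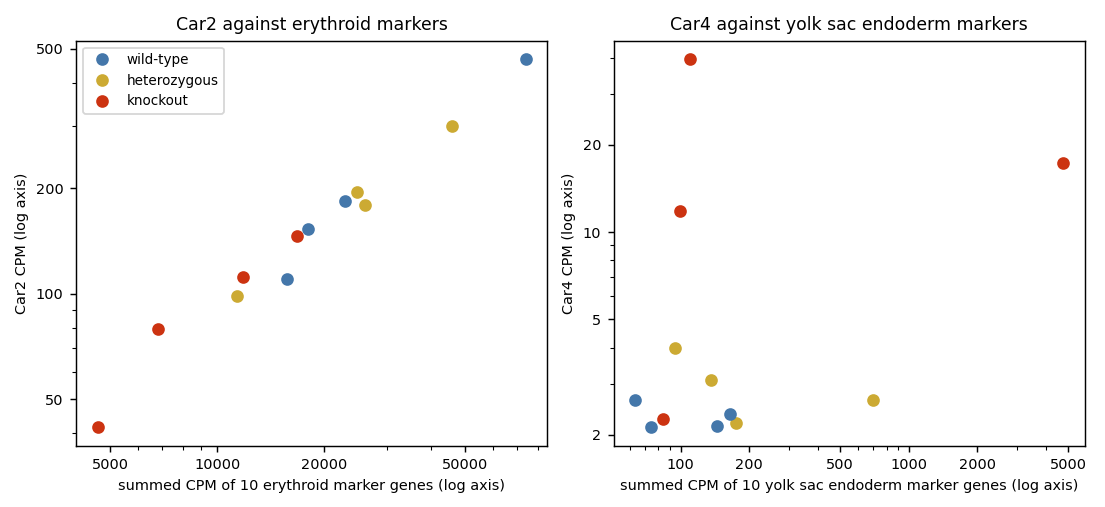
Left, Car2 CPM against the summed CPM of 10 erythroid markers, and right, Car4 CPM against the summed CPM of 10 yolk sac endoderm markers, both on log axes with 1 point per embryo coloured by genotype. Car2 rises with the erythroid sum in all genotypes. The 3 embryos high in Car4 have yolk sac sums of 99.0, 110 and 4766 CPM.

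The bases in front of the Car4 start site were examined because this gene had the widest range of the set. The 250 bases before the start, from the RefSeq promoter table (GRCm38.p6, chr11:84957504-84957753, plus strand), were searched on both strands for AGATAA, a motif of GATA factors, for ACGTG, the core of the hypoxia response element, and for TGATGNAA, the C/EBP-ATF response element. None of these letters occurred in the window, which is printed 5′ to 3′ in lower case.
Car4: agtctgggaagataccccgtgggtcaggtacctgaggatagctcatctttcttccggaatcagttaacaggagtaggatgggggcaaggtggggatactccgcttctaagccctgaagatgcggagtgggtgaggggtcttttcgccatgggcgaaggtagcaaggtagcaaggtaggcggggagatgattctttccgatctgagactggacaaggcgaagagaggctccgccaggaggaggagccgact
Of all 32851 promoter windows of that length, 9.99% held AGATAA, 16.6% ACGTG and 3.45% TGATGNAA. The table held 10 windows for 6 of the members (Car4, Car7, Car10, Car11, Car12 and Car14). A single Car7 window held AGATAA, 1 window each of Car10 and Car14 held ACGTG, and 2 overlapping Car11 windows held TGATGNAA.

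Genes with a pattern like that of Car4 over the 12 embryos were sought among 16556 other named genes by the Pearson correlation of log2 CPM. The 5 most alike were Gpx3, an extracellular glutathione peroxidase (r = 0.92, Spearman rho = 0.82), Sel1l3 (0.91 and 0.88), the mitochondrial phenylalanine transfer RNA TrnF (0.90 and 0.77), the serine protease inhibitor gene Serpinb9b (0.90 and 0.66) and Foxi3, a transcription factor of ectodermal appendages (0.88 and 0.64). The embryos share their source of RNA and depth, and these values describe a ranking over many genes. The likeness rested in part on the high knockout embryos: over the 8 heterozygous and wild-type embryos r was 0.73 for Gpx3, 0.79 for Sel1l3 and 0.46 for TrnF, but -0.19 for Foxi3. Gpx3 had 68.6 to 96.0 CPM in wild-type, 70.6 to 120 in heterozygous and up to 352 CPM in knockout embryos. Serpinb9b was nearly silent in wild-type embryos (0 to 0.0599 CPM) and reached 16.8 CPM in the highest knockout embryo. Ranked by Spearman rho in place of Pearson r, only Sel1l3 of these 5 stayed among the first 5.

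Car2, the cytosolic enzyme of red cells, had its peak in wild-type 1 and its minimum in knockout 1. Its levels in wild-type 1 to 4 were 467, 184, 153 and 110 CPM, and in heterozygous 1 to 4 they were 195, 179, 98.2 and 301 CPM. Knockout 1 to 4 had 41.7, 112, 146 and 79.6 CPM. Knockout embryos thus lay in the lower part of the range and overlapped both other genotypes. The means were 228 ± 162 CPM in wild-type, 193 ± 83.1 in heterozygous and 94.7 ± 44.5 CPM in knockout embryos (SD, n = 4). The log2 fold change was -1.27 ± 0.47 SE in knockout against wild-type, and -0.65 without wild-type 1. It was -1.03 ± 0.47 SE in knockout against heterozygous and -0.24 ± 0.47 SE in heterozygous against wild-type embryos. The last turned positive without wild-type 1 (0.38), with Xist as a covariate (0.48), when title numbers were blocked (0.50) and by limma voom (0.56).

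Red cell markers moved with Car2 from embryo to embryo. Of 10 erythroid markers all passed the filter and none was at 0 throughout, and all 10 had lower estimates in knockout against wild-type embryos. Their summed level was 15741 to 73884 CPM in wild-type, 11415 to 45989 in heterozygous and 4610 to 16758 CPM in knockout embryos. Over the 12 embryos Car2 spanned 11.2-fold, and Car2 per 1000 CPM of the sum spanned 1.84-fold. That ratio, chosen after the values were seen, was 7.45 ± 0.969 in wild-type, 7.47 ± 0.946 in heterozygous and 9.70 ± 1.32 in knockout embryos (SD, n = 4). Relative to the erythroid sum, knockout embryos (8.70 to 11.6) lay above wild-type (6.32 to 8.48) and heterozygous embryos (6.53 to 8.61), the reverse of the order of Car2 CPM. The lowest ratios belonged to the embryos of highest sum, 6.32 in wild-type 1 and 6.53 in heterozygous 4. At like sums, heterozygous 3 had 8.61 (11415 CPM) and knockout 2 had 9.43 (11849 CPM). Likewise wild-type 4 had 7.02 (15741 CPM), wild-type 3 had 8.48 (18004 CPM) and knockout 3 had 8.70 (16758 CPM). The part of the sum itself in this order was not tested. Among 20761 genes, 21.3% lay above wild-type without overlap on this ratio scale and 6.68% above heterozygous embryos, beside 3 of the 10 members (Car2, Car4 and Car7) in each case. The 5 genes most like Car2 in pattern were the embryonic globin Hbb-y (r = 0.98), Cfap57 (0.98), Uba7 (0.97), the globin chaperone Ahsp (0.97) and Ube2l6 (0.97), with Spearman rho between 0.94 and 0.99. Their r within the 8 heterozygous and wild-type embryos was 0.96 to 0.99.

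The other cytosolic members were Car3, Car7 and Car13. Car3, a low-activity enzyme abundant in skeletal muscle, had 8.35, 6.72, 5.97 and 3.53 CPM in wild-type 1 to 4 and 7.20, 8.07, 5.74 and 5.98 CPM in heterozygous 1 to 4. Knockout 1 to 4 had 4.49, 4.56, 4.38 and 5.72 CPM, below every heterozygous embryo by a margin as small as 5.72 against 5.74 CPM, and inside the wild-type range. The fitted log2 fold change was -0.49 ± 0.25 SE against heterozygous and -0.36 ± 0.25 SE against wild-type embryos. The 8 skeletal muscle and heart markers, none at 0 throughout, summed to 459 to 650 CPM in wild-type, 375 to 1070 in heterozygous and 293 to 708 CPM in knockout embryos, and their part in the Car3 levels was not tested.

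Car7, known from neurons, was one of the rarest members and was highest in knockout 2, 3 and 4. It had 0.189, 0.493, 0.913 and 1.04 CPM in wild-type 1 to 4 and 0.190, 0.549, 0.548 and 0.576 CPM in heterozygous 1 to 4. Knockout 1 had 0.585 CPM and knockout 2, 3 and 4 had 2.47, 1.79 and 1.38 CPM. As with Car4, it was knockout 1 that lay among the other genotypes, although it exceeded each heterozygous embryo by a little. The log2 fold change was 1.74 ± 0.57 SE in knockout against heterozygous, 1.24 ± 0.56 SE in knockout against wild-type and -0.51 ± 0.56 SE in heterozygous against wild-type embryos. All 4 heterozygous embryos lacked Ddx3y, so that sex and this genotype overlap: with Xist as a covariate the first fell to 0.94 and the last turned to 0.38. By limma voom the knockout against wild-type value was 0.41. Knockout minus wild-type was 2.41 on the log2 scale within title number 18 and 1.31 within number 4. Neuronal markers had lower estimates in knockout against wild-type embryos in 10 of 10 cases, and knockout 4 had the lowest sum of them, 193 CPM. The part of these markers in the Car7 levels was not tested.

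Car13 varied little between genotypes. Its range was 5.97 to 9.82 CPM in wild-type, 6.53 to 9.43 in heterozygous and 6.01 to 13.4 CPM in knockout embryos, where knockout 4 was highest and knockout 1 lowest. The log2 fold change in knockout against wild-type was 0.22 ± 0.25 SE.

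**Figure D3:**
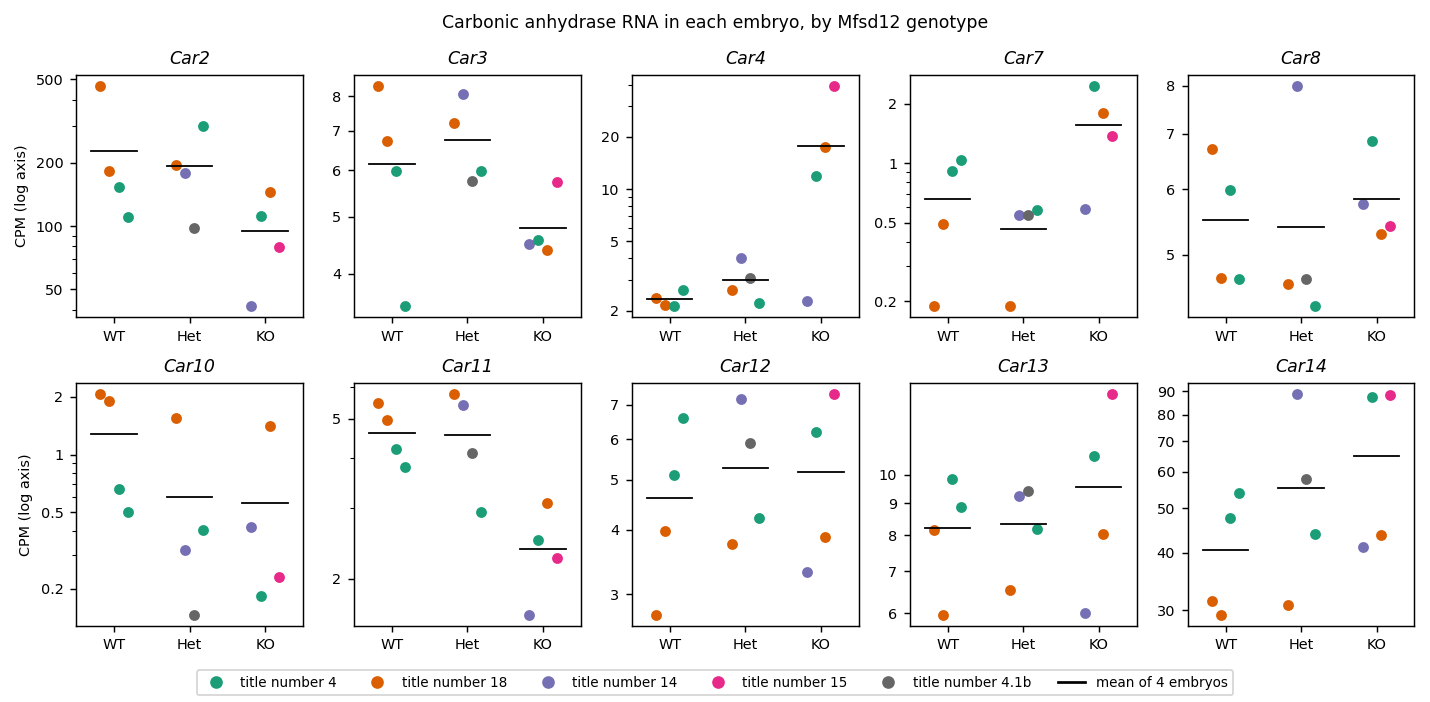
CPM of each member (log axis, a scale of its own per panel) in wild-type (WT), heterozygous (Het) and knockout (KO) embryos, 1 point per embryo coloured by title number, with the mean of 4 embryos as a line. Car4 and Car7 are high in 3 knockout embryos and low in knockout 1, and Car10 is high in the 4 embryos of title number 18.

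Among the membrane-spanning forms, Car14 was abundant and Car12 rare. Car14 is transcribed from the minus strand of chromosome 3 (95805080 to 95812443, GRCm39), and 485 bases of its exons, 20% of its length, overlap the oppositely transcribed gene Aph1a, whose reads there cannot be told apart since strand was not used. With even coverage, Aph1a would supply an estimated 4.1% to 15.9% of the Car14 count. Car14 had 31.4, 29.3, 47.7 and 54.0 CPM in wild-type 1 to 4 and 30.8, 88.6, 57.9 and 44.0 CPM in heterozygous 1 to 4. In knockout 1 to 4 the values were 41.1, 87.4, 43.8 and 88.2 CPM. The highest embryos came from 2 genotypes, and the log2 fold change in knockout against wild-type was 0.68 ± 0.34 SE, and -0.0056 with the stage index as a covariate. Car12, which is also induced by low oxygen in many cells, ranged from 2.74 to 6.60 CPM in wild-type, 3.76 to 7.18 in heterozygous and 3.31 to 7.33 CPM in knockout embryos. Its log2 fold change in knockout against wild-type was 0.17 ± 0.33 SE. The library labelled heterozygous 2 held the highest heterozygous value of Car12 and of Car14, and its 10 low-oxygen targets, none at 0 throughout, summed to 7758 CPM against 1184 to 3422 CPM in the other 11 embryos. Knockout 4, with a sum of 3422 CPM, had 7.33 CPM of Car12 and 88.2 CPM of Car14. The part of these targets in the Car12 and Car14 levels was not tested.

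The non-catalytic members differed from one another. Car11, expressed mainly in brain in the adult, was lower in every knockout than in every wild-type embryo. It had 5.47, 4.95, 4.19 and 3.79 CPM in wild-type 1 to 4 and 5.74, 5.41, 4.11 and 2.92 CPM in heterozygous 1 to 4. Knockout 1 to 4 had 1.63, 2.49, 3.08 and 2.25 CPM, and only heterozygous 4 fell within their range. The log2 fold change was -0.96 ± 0.27 SE against wild-type and -0.94 ± 0.27 SE against heterozygous embryos, and -0.018 ± 0.27 SE in heterozygous against wild-type embryos. All 10 neuronal markers, none at 0 throughout, had lower estimates in knockout against wild-type embryos. Their sum was 724 to 1186 CPM in wild-type, 613 to 1278 in heterozygous and 193 to 797 CPM in knockout embryos, and its part in the Car11 levels was not tested. The 250 bases before 1 of its start sites (GRCm38.p6, chr7:45699554-45699803, plus strand), shown because Car11 was the member whose knockout values all lay below the wild-type values, carry TGATGNAA once, in capitals.
Car11: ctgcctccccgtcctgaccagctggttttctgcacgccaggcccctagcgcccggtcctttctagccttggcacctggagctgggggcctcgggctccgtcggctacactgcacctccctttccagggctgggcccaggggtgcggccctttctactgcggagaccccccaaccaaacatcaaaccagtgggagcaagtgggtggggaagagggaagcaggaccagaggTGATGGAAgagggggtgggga
Car8, which binds the inositol trisphosphate receptor of Purkinje neurons, was the steadiest member, at 4.67 to 6.71 CPM in wild-type, 4.34 to 8.01 in heterozygous and 5.30 to 6.86 CPM in knockout embryos. Its log2 fold change in knockout against wild-type was 0.081 ± 0.24 SE. Car10, a secreted partner of neurexins at synapses, had 0.504 to 2.07 CPM in wild-type, 0.146 to 1.55 in heterozygous and 0.182 to 1.40 CPM in knockout embryos, with a log2 fold change of -1.19 ± 0.79 SE in knockout against wild-type. This became -2.19 without knockout 3 and -0.079 with the stage index as a covariate. Its highest value in each genotype belonged to title number 18.

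**Figure D4:**
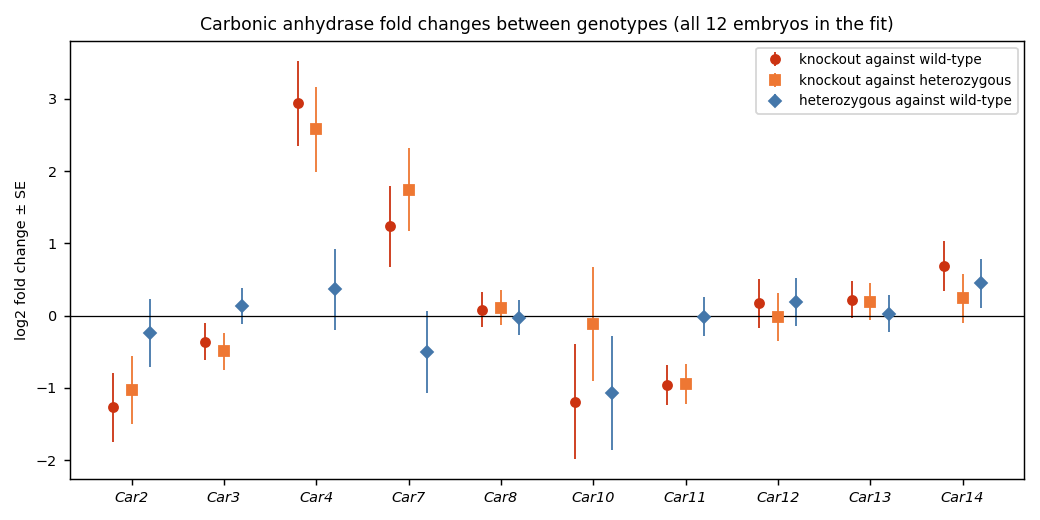
Log2 fold change ± SE of each member in the 3 comparisons between genotypes, from 1 fit of all 12 embryos. In both comparisons of knockout embryos Car4, Car7, Car8, Car13 and Car14 lie above 0 and Car2, Car3, Car10 and Car11 below 0. Car12 differs in sign between them. In heterozygous against wild-type embryos none of the 10 passed an unadjusted p under 0.05.

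Across all genes, edgeR's quasi-likelihood test with Benjamini-Hochberg adjustment called 0 of the 10 members in each of the 3 genotype comparisons, and it called 0 of all 20771 genes as well (percent called 0). At an unadjusted p under 0.05, 4 of 10 members (Car4 and Car7 higher, Car2 and Car11 lower) passed in knockout against wild-type, where 8.33% of all genes did (4.25% higher and 4.08% lower). The same 4 passed in knockout against heterozygous embryos, with 7.40% of all genes (3.61% higher and 3.79% lower). DESeq2 called 1 member in each of these comparisons, among 122 and 74 of the 20771 genes, and limma voom 0. In knockout against wild-type that member was Car4. Both comparisons share the knockout embryos, on whose Car4 counts the set was selected, so nothing is read from any of these counts. In heterozygous against wild-type embryos 0 of 10 passed, against 1.01% of all genes, and DESeq2 and limma voom called 0 members. The genotypes did not overlap for 1 of 10 members in knockout against wild-type (Car11, lower; 1.82% of all genes lower and 3.41% in either direction), for 2 in knockout against heterozygous (Car7 higher, 1.51% of all genes, and Car3 lower, 1.93%; 3.44% in either direction) and for 0 in heterozygous against wild-type embryos (0.862%). Over the 10 members the median log2 fold change was 0.12 in knockout against wild-type, beside 0.011 over all genes, with 6 estimates above and 4 below 0.

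The title number gave a comparison that the choice of genes had not used, since numbers 18 and 4 each hold 1 knockout, 1 heterozygous and 2 wild-type embryos. What the number stands for is not stated, and each number is a single set of embryos. The p-values between numbers, here and below, therefore measure the spread between embryos and not between such sets. With genotype in the fit, Car10 was higher in number 18 and Car14 was lower, and the other 8 members did not pass. Car10 had 1.40 to 2.07 CPM in number 18 and 0.182 to 0.659 CPM in number 4, without overlap. Its log2 fold change was 2.05 ± 0.30 SE (edgeR, adjusted p = 0.0097 over 21492 genes). Car14 had 29.3 to 43.8 CPM in number 18 and 44.0 to 87.4 CPM in number 4, which meet but do not overlap. Its log2 fold change was -0.75 ± 0.12 SE (edgeR, adjusted p = 0.0139), while that of the overlapping Aph1a was 0.095 ± 0.15 SE. These 2 of 10 members stand beside 7.85% of all genes called (4.75% higher and 3.10% lower), and at an unadjusted p under 0.05 6 of 10 members passed beside 28.9% of all genes. Car12 and Car13 were also lower in number 18 without overlap, at log2 fold changes of -0.61 ± 0.21 SE and -0.39 ± 0.15 SE that missed the adjusted threshold. For Car13 the ranges nearly met, at 8.16 CPM in number 18 and 8.18 CPM in number 4. In all, 4 of 10 members did not overlap between the numbers, against 19.9% of all genes (1 higher beside 10.1%, and 3 lower beside 9.79%). Car4 differed by 0.17 ± 0.18 SE and Car2 by 0.60 ± 0.39 SE.

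Genes of other lists were called between the title numbers too, beside 4.75% of all genes higher and 3.10% lower. Of 6 early-stage genes 3 were lower in number 18 (Lin28a, Lin28b and Cyp26a1), and of 7 endothelial markers 2 were lower (Cdh5 and Kdr). Of 7 macrophage markers 6 were higher, of 10 yolk sac endoderm markers 5, and of 10 neuronal markers 2 (Tubb3 and Stmn2). Of 8 muscle and heart markers 1 was higher (Myod1) and 1 lower (Myh7), and of 8 pigment epithelium and choroid plexus markers 1 was higher (Ttr) and 1 lower (Otx2). Single genes were called among the gut endoderm (Spink1, higher), notochord and floor plate (Shh, lower) and low-oxygen lists (Slc2a1, lower), 1 late-stage gene, Stmn2 again, was higher, and of 10 erythroid markers 0 were called. The part of these groups in the Car10 and Car14 differences was not tested one by one. With the stage index in the fit the log2 fold changes were 1.75 ± 0.55 SE and -0.52 ± 0.22 SE and missed the threshold (edgeR, adjusted p = 0.063 and 0.144). Car7, at -2.72 ± 0.67 SE, then passed as the single member called (edgeR, adjusted p = 0.033). The index was 0.512 to 1.57 in number 18 and -1.02 to 0.308 in number 4. Stage and title number can therefore hardly be told apart in this fit, and nothing is read from the lost calls. Without wild-type 2 or wild-type 4 the Car14 call was lost too (edgeR, adjusted p = 0.0645 and 0.0767), and it was also lost with Xist as a covariate (edgeR, adjusted p = 0.0687).
The 250 bases before the Car14 start (GRCm38.p6, chr3:95904686-95904935, minus strand) and before the start of 1 Car10 transcript (GRCm38.p6, chr11:93099040-93099289, plus strand) are printed because these were the members called here, with the ACGTG match on either strand in capitals.
Car14: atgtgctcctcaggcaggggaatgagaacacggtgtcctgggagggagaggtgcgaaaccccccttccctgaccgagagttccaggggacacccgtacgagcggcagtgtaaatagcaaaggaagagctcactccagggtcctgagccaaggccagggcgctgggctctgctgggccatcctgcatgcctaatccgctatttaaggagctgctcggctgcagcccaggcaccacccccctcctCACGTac
Car10: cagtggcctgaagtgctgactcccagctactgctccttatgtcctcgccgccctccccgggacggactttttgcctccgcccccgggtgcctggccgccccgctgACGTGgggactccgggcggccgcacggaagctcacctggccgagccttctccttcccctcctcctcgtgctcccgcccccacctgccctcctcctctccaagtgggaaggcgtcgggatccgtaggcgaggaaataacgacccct
Each window held the letters once, and 16.6% of all windows hold them.

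**Figure D5:**
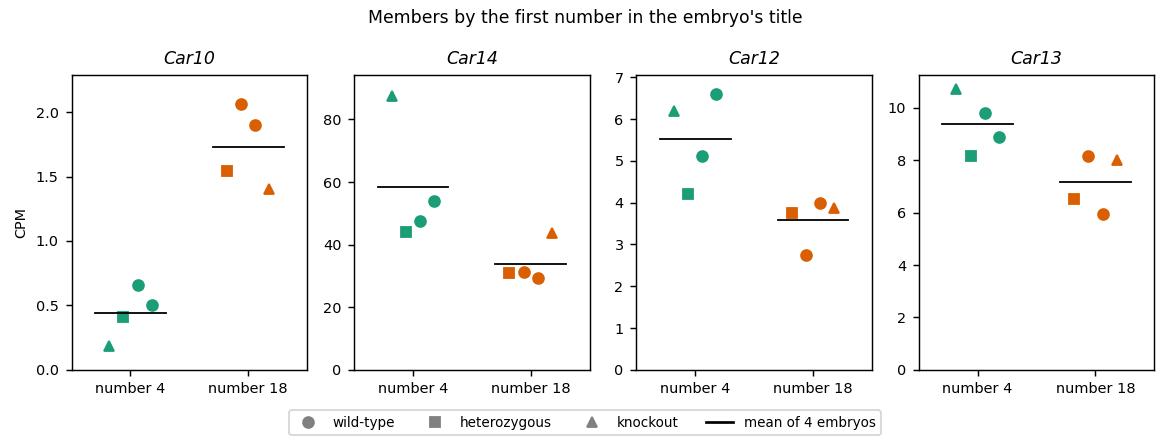
CPM of Car10, Car14, Car12 and Car13 in the 4 embryos of title number 4 and the 4 of number 18, with genotype as the marker shape and the mean of 4 embryos as a line. Car10 is higher in number 18, and the other 3 genes are lower there without overlap, of which only Car14 passed the adjusted threshold.

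Among transporters that work with these enzymes, 0 passed the adjusted threshold between genotypes, where 0 of all 20771 genes passed it. Of 26 genes that carry bicarbonate, protons, lactate, ammonia or water, chosen as a list, 22 passed the filter. In knockout against wild-type embryos 11 had higher and 11 lower estimates, 0 passed the adjusted threshold in either direction, and at an unadjusted p under 0.05 0 lay higher and 3 lower (4.25% and 4.08% of all genes), with a median log2 fold change of -0.0081 beside 0.011 over all genes. In knockout against heterozygous embryos 7 had higher and 15 lower estimates. At an unadjusted p under 0.05, 0 lay higher there and 3 lower (3.61% and 3.79% of all genes). In heterozygous against wild-type embryos 14 had higher and 8 lower estimates, and 0 passed that unadjusted threshold (1.01% of all genes). Again 0 were called in these comparisons. The most abundant per kilobase were Bsg, the partner of lactate transporters, at 194 CPM per kilobase, and Slc4a1, the chloride and bicarbonate exchanger of red cells, at 69.0 CPM per kilobase. Slc4a1, which is also an erythroid marker, had a log2 fold change of -1.70 ± 0.45 SE and Bsg of -0.16 ± 0.35 SE in knockout against wild-type embryos. Between title numbers 2 of the 22 transporters were higher in number 18 and 2 lower, beside 4.75% and 3.10% of all genes. The water channel Aqp1 (log2 fold change 1.50 ± 0.17 SE; edgeR, adjusted p = 0.00465) and the neuronal bicarbonate transporter Slc4a10 (3.55 ± 0.42 SE; edgeR, adjusted p = 0.00496) rose. Slc4a10 was rare, at 0.0332 to 0.237 CPM in number 4 and 0.654 to 2.09 CPM in number 18, with a mean of 34.2 counted reads over all embryos. The lactate transporter Slc16a1 (-0.53 ± 0.12 SE; edgeR, adjusted p = 0.0358) and the sodium bicarbonate cotransporter Slc4a7 (-0.81 ± 0.20 SE; edgeR, adjusted p = 0.0432) fell.

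Of the 6 family genes outside the set, 4 passed the filter. Car1, a second red cell enzyme, had 0.120 to 0.740 CPM in wild-type, 0.110 to 0.507 in heterozygous and 0 to 0.183 CPM in knockout embryos. The mitochondrial Car5b had 1.08 to 1.69, 1.16 to 1.42 and 0.329 to 1.23 CPM. Car9 reached 10.5 CPM in the library labelled heterozygous 2 and lay between 0.725 and 1.51 CPM in the other 11 embryos. Car15, another lipid-anchored form, had 0.296 CPM in that same library and 1.32 to 2.46 CPM elsewhere. Car5a and Car6 did not pass.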

How the data were processed

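RNA of 12 whole mouse embryos was analysed, 4 per genotype. Per the labels' protocols, a stranded mRNA kit and 325 ng of RNA were used for each library. The authors deposited 1 table of estimated counts (expected counts, not normalized), made per the file headers with featureCounts 2.0.6 on the RefSeq annotation of GRCm39, with fractions of reads for multiple mappings or overlaps, each mate counted singly and strand unused. The submitters' processing notes also name DRAGEN, without a role. Gene length is the file's own column.

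Counts were rounded, filtered with filterByExpr and scaled by TMM. Quasi-likelihood tests of edgeR 4.0.16 in R 4.3.3 were two-sided, with a mean per genotype and all 12 embryos, or genotype plus title number over 8. P-values were adjusted over all genes tested (Benjamini-Hochberg, threshold 0.05), and the test was checked on simulated data. Log2 CPM values used a prior count of 2. P-values measure the spread between embryos. All pairs of libraries differed beyond sampling noise.

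The members and gene lists were chosen with earlier results of these data known. All members were to be named, with the 5 genes most like Car4 and the most abundant member, and the 2 most abundant and any called genes of the transporter list. DESeq2 1.42.0, limma 3.58.1 voom, other scalings, filters and covariates, and leaving out embryos were the alternatives. A planned comparison of zinc-binding residues was not run, since protein sequences were not used here.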

Additional observations from a re-analysis of the deposited data

Results flagged for a closer look

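Of 30 groups of 4 embryos, a gene and a genotype each, 3 held a single embryo set far from the other 3, where chance alone flags about 1 group in 20. Car3 had 5.72 CPM in knockout 4 and 4.38 to 4.56 CPM in the other knockout embryos. In heterozygous 1 Car7 had 0.190 CPM, against 0.548 to 0.576 CPM in heterozygous 2, 3 and 4. Car8 had 8.01 CPM in the library labelled heterozygous 2 whereas heterozygous 1, 3 and 4 had 4.34 to 4.68 CPM.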

How the results depend on the processing

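Signs of the members' log2 fold changes held under all 23 alternatives for 6 of 10 members in knockout against wild-type (Car2, Car3, Car4, Car7, Car10 and Car11), for 6 in knockout against heterozygous (Car8 in place of Car10) and for 3 in heterozygous against wild-type embryos (Car4, Car10 and Car14). For Car4 in knockout against wild-type the log2 fold change ranged from 1.48 (limma voom) to 3.32 (without knockout 1). DESeq2 called 122, 74 and 4 of 20771 genes in the 3 genotype comparisons and 3840 of 21492 between title numbers. Among them were 1, 1, 0 and 4 of the 10 members. With the title number as a block, 2 genes and 0 members were called in knockout against wild-type. Car10 kept its sign there but ranged from -2.19 to -0.079. Without the library labelled heterozygous 2 and knockout 3 together, 19 genes were called in knockout against wild-type and 33 in knockout against heterozygous embryos. Heterozygous 2 is not in the comparison of title numbers, where this setting is the same fit as without knockout 3. Leaving out single embryos gave 0 to 1 genes and 0 to 1 members in knockout against wild-type (1 of each without knockout 1), 0 to 1 genes and 0 members in knockout against heterozygous, and 210 (without wild-type 4) to 3910 genes (without knockout 3) and 1 to 3 members between title numbers. That count of genes was also 7345 of 21492 with limma voom (6 members) and 2559 with no filter on low counts. It was 2976 with the stage index (1 member) and 288 with Xist as a covariate (1 member). Car10 stayed called under all alternatives but the stage index. The log2 fold change of Car8 between title numbers, -0.029, turned positive with upper quartile scaling (0.00099), the stage index (0.43) and Xist (0.080). In single-embryo omissions it ranged from -0.17 (without wild-type 1) to 0.089 (without knockout 3). The causes were not tested. Depth limits Car7 and Car10, with about 50 counted reads per embryo.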
